A study of Mus musculus with 6 samples.

Results

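Ly6G+ cells of mice given Mdivi-1 were compared with Ly6G+ cells of mice given its vehicle, in 4 of the 6 RNA sequencing libraries of the study. The rule for the comparison takes the deposited expression columns named for Ly6G, 2 with vehicle and 2 with Mdivi-1. All 6 libraries came from C57BL/6 bone marrow, and in every one the sorted cells were of a clone with mutant CBL and RUNX1, which stands for myelodysplastic syndrome in this design. Both Ly6G+ groups therefore share the mutations, the strain and the tissue, and differ by label in Mdivi-1 against vehicle. The dose, the length of treatment, the age of the mice and the form of the 2 mutant alleles are missing from the labels, and no unmutated cells were analysed here. The other 2 libraries, 1 per treatment, held hematopoietic stem and progenitor cells (HSCPs) enriched through CD117, and are used below as values set beside those of the Ly6G+ cells. Marrow was taken from individual mice, yet no label names the mouse behind a library, so the p-values reflect only how these libraries spread, which may be technical.

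Ly6G is a surface protein of the neutrophil lineage in mice, and in marrow the Ly6G+ gate spans cells from the granule-making stages to the segmented neutrophil. Granulocytes make their granule proteins in order: primary granule proteins in promyelocytes, secondary granule proteins in myelocytes, and tertiary granule proteins, chemoattractant receptors and cytokine receptors late. Mature marrow neutrophils are held back or released through chemokine receptors and respond to interleukin-1, bacterial products, interferons and steroid hormones. Mdivi-1 is a quinazolinone compound used to block Drp1, the product of Dnm1l, which constricts mitochondria until they divide.

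Expression is given in TPM, the share of each gene among all transcripts after correction for length, after scaling each library by its median ratio to the others. The scaling factors were 1.02 and 1.03 for vehicle and 0.991 and 0.973 for Mdivi-1. Read totals are unknown, so no counting interval is given. From the spacing of values below 0.3 TPM, the TPM that 1 read adds was 0.891 times that of vehicle 1 in vehicle 2, 0.832 times in Mdivi-1 1 and 0.803 times in Mdivi-1 2, so the vehicle libraries were the shallower pair by this measure. All 15 genes of a neutrophil identity list were detected at 1 TPM or more in at least 2 libraries, and S100a8 and S100a9 together held 19.7% to 20.9% of the TPM of each library. Ly6g stood at 802 and 816 TPM with vehicle and 798 and 659.5 TPM with Mdivi-1 (log2 change -0.16, SE 0.0971, adjusted p = 0.375). Dnm1l stood at 23.9 and 22.5 TPM with vehicle and 23.2 and 25.3 TPM with Mdivi-1 (log2 change 0.06, adjusted p = 0.683), which shows the transcript and says nothing of the protein's activity. Cbl (0.10, adjusted p = 0.345), Runx1 (-0.07, adjusted p = 0.651) and Kit (-0.32, adjusted p = 0.264) did not pass the test.

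Of 28987 genes in the table, 11775 reached 1 TPM in at least 2 of the 4 libraries and were tested. With Mdivi-1, 379 genes (3.22%) were higher and 372 (3.16%) were lower, 751 in all (6.38%), by limma on log2(TPM + 1) with Benjamini-Hochberg adjusted p below 0.05. On TPM as deposited, without scaling, 290 were higher and 499 lower, so that the higher genes made up 36.8% of the calls against 50.5% with scaling. The median size of these changes was 0.60 on the log2 scale, where a value of 1 is a change of 2-fold, and 84 genes (0.713%) rose and 93 (0.79%) fell by at least 2-fold. An unadjusted p below 0.05 was reached by 3019 genes (25.6%), and in 6704 genes (56.9%) both libraries of an arm lay above both of the other. With 2 libraries against 2, no exact permutation test of a single gene can go below p = 0.333, so every call rests on limma's sharing of variance across genes. The count fell when any library was left out, to 114 higher and 39 lower without vehicle 1, 93 and 29 without vehicle 2, 195 and 199 without Mdivi-1 1, and 196 and 184 without Mdivi-1 2. Of 265 named genes that were called, all 265 kept their sign in those fits that tested them, 67 stayed past the threshold in all 4 and 191 in at least 1. Genes called and printed with an SE are among the 67. For genes whose arms do not overlap, leaving out a library cannot reverse the sign apart from rescaling. Kept signs are therefore no added support. Without vehicle 1 or vehicle 2, 711 of the 751 called genes were tested, and without either Mdivi-1 library 738. Genes not tested in such a fit are missing from its counts, here and in the lists below. In bulk samples, fewer cells of a type and less RNA per cell cannot be told apart.

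**Figure D1:**
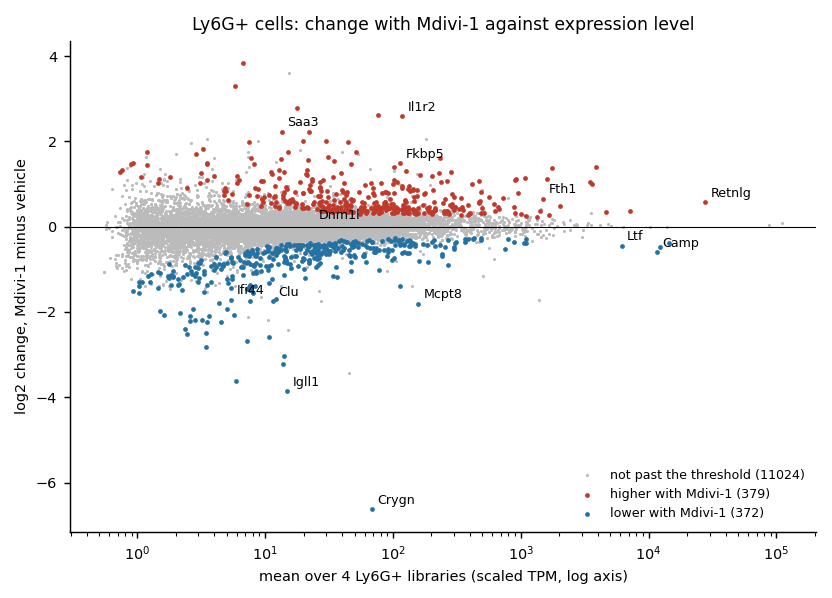
Log2 change with Mdivi-1 (vertical axis, Mdivi-1 minus vehicle) against the mean over the 4 Ly6G+ libraries in scaled TPM (horizontal log axis) for the 11775 genes tested. Red points are the 379 genes higher, blue points the 372 genes lower and grey points the genes not past the threshold; called genes lie on both sides at every level, from a few TPM up to Retnlg, among the highest.

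Among 71 lists of related genes, those with the highest shares of called members were the stefin protease inhibitors (7 of 7 tested, all higher), the tertiary granule and late neutrophil list (36 higher and 2 lower of 52) and the megakaryocyte and platelet list (1 higher and 19 lower of 29). Lists of mitochondrial fission, fusion, the mitochondrial genome, oxidative phosphorylation and the mitochondrial ribosome had 0 called members. These counts are to be read against 3.22% of all tested genes higher and 3.16% lower. The median log2 change over all tested genes was 0.00. The lists were written with earlier results of these data known, so their shares are descriptions only. Members are shared between lists, so a rise can count in several. Stfa1, Stfa2, Stfa2l1 and Stfa3 count in both the stefin and the late neutrophil list. The late neutrophil list also holds Dusp1, Il1r2, Il1b, Cxcr2, Ccr1, Csf3r and Fth1, given below under other lists too.

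**Figure D2:**
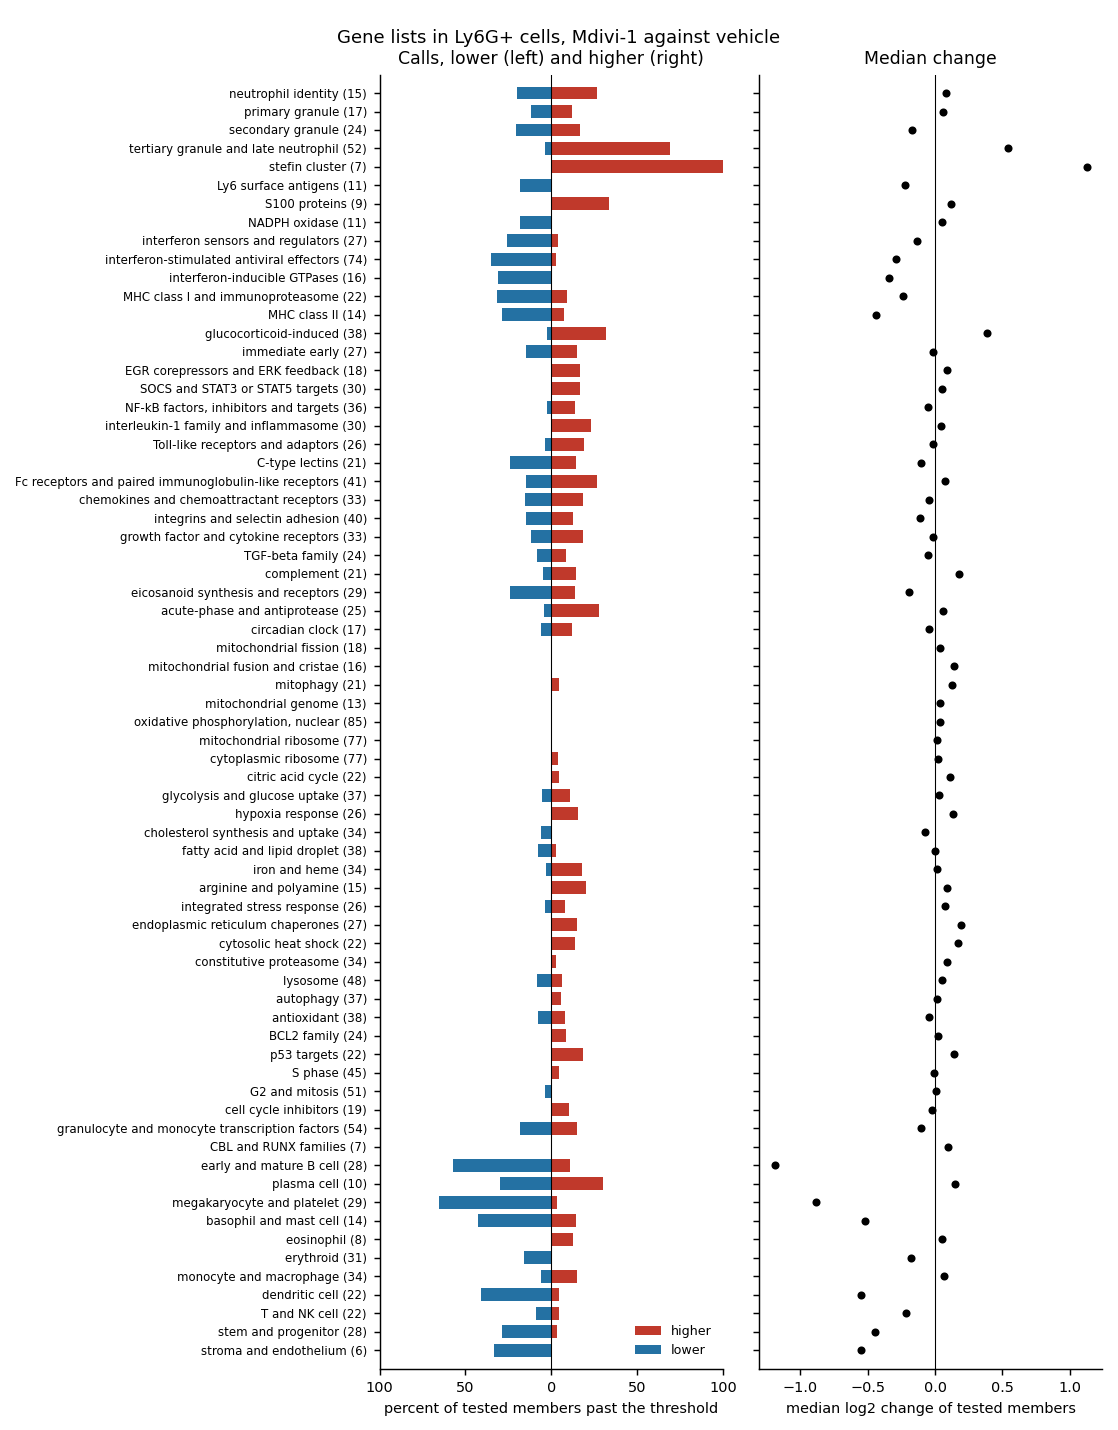
Gene lists with at least 5 tested members, the number tested in brackets. Left, percent of tested members past the threshold (red bars to the right, higher with Mdivi-1; blue bars to the left, lower); right, the median log2 change of the tested members of each list (black points). The stefin and late neutrophil lists stand to the right, the B cell and megakaryocyte lists to the left, and the mitochondrial lists close to 0.

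Several genes that glucocorticoids induce rose in the Mdivi-1 libraries. Glucocorticoids bind a nuclear receptor that switches on a set of genes shared by many tissues, among them feedback regulators of the receptor, of NF-kB and of MAP kinases. Of 38 tested genes of such a list, 12 rose, 1 fell and 25 did not pass, and the median log2 change was 0.38. Fkbp5, a co-chaperone that lowers the receptor's affinity for hormone (chromosome 17, 28399094 to 28517527, mm10), stood at 58.9 and 59.4 TPM with vehicle and 162 and 173 TPM with Mdivi-1. That is a log2 change of 1.49 (SE 0.0586, adjusted p = 0.00216), and the gap between the arms was many times the gap within either. Per1, a repressor of the circadian clock that the receptor also induces (chromosome 11, 69095217 to 69109960), stood at 15.9 and 13.1 TPM with vehicle and 50.6 and 44.2 TPM with Mdivi-1 (log2 change 1.64, SE 0.12, adjusted p = 0.00534). Tsc22d3, which encodes the glucocorticoid-induced leucine zipper (chromosome X, 140539528 to 140600659), went from 106 and 96.6 to 192 and 182 TPM (log2 change 0.88, adjusted p = 0.00638). In each of these the lower Mdivi-1 library was above the higher vehicle library.

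Other members of the list moved the same way. The arrestin-domain gene Arrdc3, whose product guides receptors into endosomes, stood at 17.8 and 16.7 TPM with vehicle and 71.4 and 70.6 TPM with Mdivi-1 (log2 change 1.98, SE 0.0649, adjusted p = 0.00195). Nfkbia, the inhibitor that holds NF-kB in the cytoplasm, rose by 0.91, the metallothionein gene Mt1 by 1.04, the thioredoxin inhibitor Txnip by 0.59 and Ddit4, an inhibitor of mTOR signalling, by 0.88. The transcription factor gene Klf9 was low, at 1.25 and 1.65 TPM with vehicle and 4.87 and 4.8 TPM with Mdivi-1 (log2 change 1.26, adjusted p = 0.019), and a change so near the pseudocount of 1 is understated. The interleukin-4 receptor chain Il4ra rose by 0.53. The phosphatase gene Dusp1 (from 21 and 21 to 134 and 132 TPM) and the decoy receptor gene Il1r2 (from 33.8 and 32.4 to 196 and 210.4 TPM) complete the 12, with log2 changes of 2.61 and 2.58. Tsc22d1, a relative of Tsc22d3, fell by 0.96. Leaving out a library left 8 of the list higher without vehicle 1, 7 without vehicle 2, 9 without Mdivi-1 1 and 12 without Mdivi-1 2, and with no filter on low values the number was 10. In HSCPs, Fkbp5 stood at 59.4 and 100.3 TPM with vehicle and Mdivi-1, Per1 at 12.1 and 26.8 TPM and Tsc22d3 at 57.8 and 92.1 TPM, each higher in the Mdivi-1 library, with 1 library per arm and no test.

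**Figure D3:**
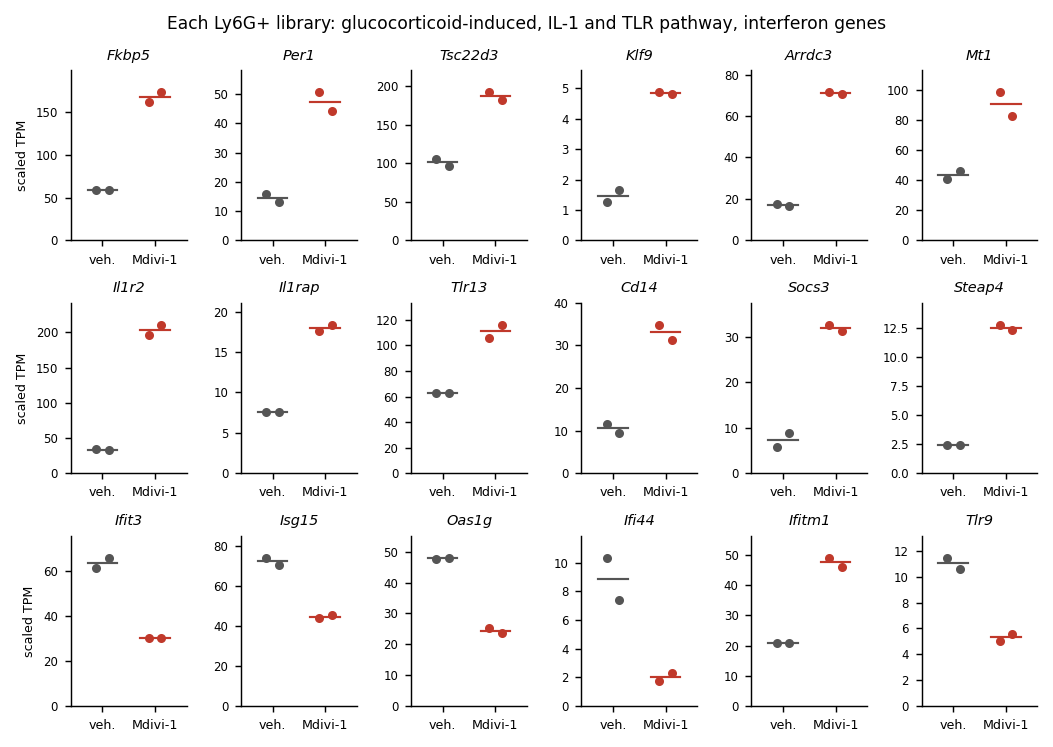
Scaled TPM (vertical axes, from 0) of 18 genes in each Ly6G+ library. Grey points are the 2 vehicle libraries, red points the 2 Mdivi-1 libraries, bars their means. In the upper 2 rows both Mdivi-1 libraries lie above both vehicle libraries; in the bottom row Ifit3, Isg15, Oas1g, Ifi44 and Tlr9 lie below and Ifitm1 above.

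The promoters of these genes were read for the palindrome that the glucocorticoid receptor binds, searched as GNACANNNTGTNC on both strands in the 250 bases before the start of transcription (RefSeq, GRCm38.p6). Promoters matched by symbol were used for 8858 of 11594 tested genes with a symbol, and 25 of them (0.282%) hold this word. Not every chromosome was searched, so a gene can lack a promoter here for that reason as well as through its symbol. Of 34 members of the glucocorticoid list with a promoter, 4 hold it, and Mt1 and Txnip are the called ones. Their windows are shown because the match lies within them. The 250 bases before Mt1 are chr8:94178839-94179088 and before Txnip chr3:96557707-96557956, both on the plus strand, written 5′ to 3′ with the match in capitals:
Mt1: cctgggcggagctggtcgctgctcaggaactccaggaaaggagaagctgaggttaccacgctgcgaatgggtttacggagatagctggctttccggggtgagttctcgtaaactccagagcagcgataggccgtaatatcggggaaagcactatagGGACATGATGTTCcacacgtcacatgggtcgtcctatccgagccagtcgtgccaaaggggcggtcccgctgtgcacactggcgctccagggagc
Txnip: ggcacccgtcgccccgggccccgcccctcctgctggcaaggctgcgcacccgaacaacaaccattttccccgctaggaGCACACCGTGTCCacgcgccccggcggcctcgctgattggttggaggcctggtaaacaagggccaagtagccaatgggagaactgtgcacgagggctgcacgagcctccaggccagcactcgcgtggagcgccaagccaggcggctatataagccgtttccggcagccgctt
The match lies 82 to 94 bases before the start of Mt1 and 160 to 172 before that of Txnip. Fkbp5 has no match in its window, which says that these letters are absent there. A match is a description of the sequence.

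The ligand, the receptor chains and sensors of the interleukin-1 system were among the genes that rose. Interleukin-1 beta is made as a precursor, cut by inflammasomes and sensed through a receptor pair that includes Il1rap, while Il1r2 binds the cytokine without signalling. Of 30 tested genes of the family and its inflammasomes 7 rose, 0 fell and 23 did not pass (median 0.04; unadjusted p below 0.05 was reached by 3 lower members). Il1b, the ligand (chromosome 2, 129364570 to 129371139), stood at 133 and 133 TPM with vehicle and 324 and 319 TPM with Mdivi-1 (log2 change 1.27, SE 0.0471, adjusted p = 0.00216). The accessory chain Il1rap stood at 7.57 and 7.57 TPM with vehicle and 17.6 and 18.4 TPM with Mdivi-1 (log2 change 1.15, SE 0.0821, adjusted p = 0.00521). The sensor genes Nlrp12 (0.64) and Nlrp3 (0.54), the interleukin-18 receptor chain Il18rap (0.41) and the interleukin-36 gene Il1f9 (0.43) rose by less. Nlrp12 and Nlrp3 passed in 0 of the 4 fits without a library, and Il1b, Il1rap and Il1r2 in all 4, so that the list's count was 3 in each of those fits.

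Some feedback and survival genes of cytokine signalling rose. Socs3, an inhibitor of receptors that signal through STAT3, stood at 5.84 and 8.73 TPM with vehicle and 32.6 and 31.2 TPM with Mdivi-1 (log2 change 2.01, SE 0.177, adjusted p = 0.00888). Of 30 tested SOCS genes and STAT3 or STAT5 targets 5 rose and 0 fell, namely Socs3, the survival gene Mcl1 (from 325 and 311 to 449 and 457 TPM, log2 change 0.51), Stat3 itself (0.39), the phosphatase gene Ptpn1 (0.33) and Il4ra. The number was 1 without vehicle 1, 1 without vehicle 2, 2 without Mdivi-1 1 and 3 without Mdivi-1 2. In the NF-kB list 5 of 36 rose and 1 fell. The chemokine gene Cxcl2 rose from 3.62 and 2.89 to 8.15 and 9.34 TPM and the apoptosis inhibitor gene Birc3 from 138 and 146 to 209 and 196 TPM, while the chemokine gene Ccl3 fell from 7.45 and 9.18 to 2.32 and 2.49 TPM (log2 change -1.45). The NF-kB rises numbered 3 without vehicle 1, 2 without vehicle 2, 4 without Mdivi-1 1 and 3 without Mdivi-1 2.

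Immediate early genes, which are induced within minutes of a stimulus and also by cell handling, went both ways. Of 27 tested members 4 rose and 4 fell (median -0.02). Klf6 rose by 0.47, Ier3 by 0.81, Fosl2 by 0.37 and Sik1 by 0.47. Jun, a subunit of AP-1, went from 17.8 and 17.7 to 10.4 and 10.7 TPM (log2 change -0.70, adjusted p = 0.0157), and Atf3 (-0.87), Ier2 (-0.33) and Ier5 (-0.42) fell with it. These counts depended on every library: without vehicle 1 there were 1 higher and 0 lower, without vehicle 2 there were 0 and 0, without Mdivi-1 1 there were 2 and 1, and without Mdivi-1 2 there were 1 and 1. On TPM as deposited 2 were higher. Nab2, a corepressor of EGR factors (chromosome 10, 127660918 to 127668568), stood at 3.85 and 3.66 TPM with vehicle and 32.5 and 30.6 TPM with Mdivi-1 (log2 change 2.77, SE 0.0872, adjusted p = 0.00195). The antisense gene Gm16229 lies inside it on the opposite strand (127663839 to 127665484) and was listed at 0 in both vehicle libraries and at 12.1 and 14.6 TPM with Mdivi-1. The strand of the libraries is not stated, so reads of this pair cannot be told apart. In HSCPs Nab2 stood at 7.02 and 28.6 TPM.

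Among pattern receptors, 5 rose and 1 fell. Toll-like receptors at the surface sense lipoproteins and lipopolysaccharide, and those in endosomes sense nucleic acids. Of 26 tested receptors and adaptors these 6 were the ones past the test, and the median was -0.02. Cd14, the lipopolysaccharide co-receptor, stood at 11.5 and 9.43 TPM with vehicle and 34.8 and 31.4 TPM with Mdivi-1 (log2 change 1.57, SE 0.118, adjusted p = 0.00573). Tlr13, which senses bacterial ribosomal RNA, stood at 62.8 and 62.5 TPM with vehicle and 106 and 116 TPM with Mdivi-1 (log2 change 0.81, adjusted p = 0.00683). The lipoprotein receptors Tlr6 (0.88) and Tlr1 (0.68) and the RNA receptor Tlr8 (0.64) rose as well. Tlr9, which senses unmethylated DNA, went from 11.5 and 10.6 to 5.06 and 5.56 TPM (log2 change -0.93, adjusted p = 0.0162). Without vehicle 2 the number higher was 1, and Tlr9 passed only without a Mdivi-1 library.

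Surface lectins and paired receptors moved both ways. The C-type lectins Clec4d and Clec4e, which sense fungal and mycobacterial glycolipids on neutrophils and monocytes, rose from 90.1 and 105 to 228 and 225 TPM and from 5.8 and 6.37 to 15.9 and 16.6 TPM (log2 changes 1.21 and 1.28, adjusted p = 0.00508 and 0.00534), and Clec4n rose by 0.93. Mrc1, Mgl2 and Cd209a, lectins of macrophages and dendritic cells, fell by 1.13, 0.94 and 1.29, and the platelet lectin Clec1b by 0.88. None of the lectin falls passed without vehicle 1 or vehicle 2. Of 41 tested Fc and paired immunoglobulin-like receptors 11 rose and 6 fell. Cd300ld (from 82.2 and 78.7 to 157 and 157 TPM, log2 change 0.95, SE 0.0532), Cd300lf (0.69), Siglece (0.58), Sirpb1c (0.72) and the Fc receptor Fcgr3 (0.31) were among the former. Pira2 and Pirb rose by 0.43 and 0.46, but 3.29% and 55.9% of their 31-mers are unique, so reads are shared with related receptors. Those that fell were Fcer1a, the IgE receptor chain (-1.47), Cd200r3 (-0.95), Siglecg (-0.79), Siglec1 (-0.83), the platelet gene Treml1 (-0.85) and the B cell gene Fcrla (-1.17). Without a library, 3 to 7 were higher, with 4 without vehicle 1 and 3 without vehicle 2.

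Some chemoattractant receptors of mature neutrophils rose. Cxcr2, the receptor that draws neutrophils out of marrow (chromosome 1, 74153989 to 74161246), stood at 354 and 347 TPM with vehicle and 628 and 613 TPM with Mdivi-1 (log2 change 0.82, SE 0.0462, adjusted p = 0.00382). Ccr1, a receptor for inflammatory chemokines, stood at 74 and 71.1 TPM with vehicle and 179 and 181 TPM with Mdivi-1 (log2 change 1.30, SE 0.0528, adjusted p = 0.00216). The formyl peptide receptor Fpr1 (0.45) and the chemokine genes Ccl6 (from 716 and 674 to 1216 and 1186 TPM, log2 change 0.79) and Cxcl2 rose too, and in all the list of 33 had 6 higher. The 5 lower were Cxcl10, an interferon-induced chemokine (-1.44), Ccl3, the platelet chemokines Pf4 (-1.01) and Ppbp (-1.19), and the sphingosine receptor S1pr4 (-0.59). Without vehicle 1 there were 3 higher and 2 lower, and without vehicle 2 there were 3 and 1. Cxcr4, which retains neutrophils in marrow, stood at 266 and 267 TPM with vehicle and 259.6 and 266 TPM with Mdivi-1 (log2 change -0.02, adjusted p = 0.835).

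Adhesion and cytokine receptor genes also went both ways. Jaml, an adhesion molecule used in crossing epithelia, went from 29.2 and 28.9 to 51.9 and 52.3 TPM (log2 change 0.82, SE 0.0583). The selectin ligand gene Selplg (0.47), Adam8 (0.33) and the integrin Itgax (0.57) were also among the 5 of 40 that rose. Of the 6 that fell, Itga2b (-1.15), Itgb3 (-0.83), Selp (-0.42) and Esam (-1.16) are known from platelets or endothelium, Cd63 (-0.44) from the granules of several blood cells and Itgb2l (-0.26) from neutrophils. Among cytokine receptors, Il13ra1 stood at 23.7 and 22 TPM with vehicle and 53.8 and 57.9 TPM with Mdivi-1 (log2 change 1.25, SE 0.0745) and the leukemia inhibitory factor receptor Lifr at 15.7 and 16.5 TPM with vehicle and 29.6 and 29.8 TPM with Mdivi-1 (log2 change 0.84, SE 0.0695). Csf3r, the receptor for the granulocyte growth factor G-CSF, rose from 379 and 382 to 598 and 557 TPM (log2 change 0.60, adjusted p = 0.00982, past the threshold in 2 of the 4 fits without a library). Il15ra (0.72) and Csf2rb (0.31) rose too, while Il2rg (-0.64), Il7r (-1.07) and Acvrl1 (-0.42) fell. Il7r reached 1 TPM in the vehicle libraries alone, so it counts here and among T and NK cell genes only through that arm. The adhesion list had 1 higher and 1 lower without vehicle 1 and 1 and 0 without vehicle 2, and had 12 lower on TPM as deposited. In the receptor list there were 2 higher and 0 lower without either vehicle library.

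Interferon-stimulated genes past the test were mostly lower. Interferons act through Janus kinases, STAT proteins and interferon regulatory factors to induce proteins that block viruses. Of 27 tested sensors and regulators 7 fell and 1 rose (median -0.14). The transcription factor genes Irf7 (from 147 and 161 to 110.1 and 113 TPM, log2 change -0.46), Irf8 (-0.54) and Stat2 (-0.33) fell, as did the RNA sensor gene Dhx58 (-0.47), the feedback gene Usp18 (from 33.4 and 33.4 to 20.2 and 19.2 TPM, log2 change -0.73) and Tlr9, whereas the kinase gene Jak1 rose by 0.31. The number lower in this list was 0 without vehicle 1 or vehicle 2 and 3 without either Mdivi-1 library.

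Among 74 antiviral effectors 26 fell, 2 rose and 46 did not pass (median -0.29). The summed level of the list did not fall, at 11510 and 11220 TPM with vehicle and 11270 and 11710 with Mdivi-1. Ifit3, a partner of the RNA-binding protein Ifit1 (chromosome 19, 34583531 to 34588731), stood at 61.5 and 66.1 TPM with vehicle and 30.4 and 30.3 TPM with Mdivi-1 (log2 change -1.05, SE 0.0657, adjusted p = 0.00451), though 38.2% of its 31-mers are unique. Oas1g, of the family that makes the activator of RNase L, stood at 47.6 and 48.1 TPM with vehicle and 25.2 and 23.5 TPM with Mdivi-1 (log2 change -0.95, SE 0.0662, adjusted p = 0.00521; 44.9% unique 31-mers). Mx1, a GTPase that traps viral nucleoproteins, stood at 32.8 and 33.4 TPM with vehicle and 15.9 and 17.4 TPM with Mdivi-1 (log2 change -0.95, adjusted p = 0.00679). In all of these the vehicle libraries lay above the Mdivi-1 libraries. Isg15, a ubiquitin-like modifier, fell by 0.69, Ifit1 by 0.75, Ifit2 by 0.85, Cmpk2 by 0.68 and the tetherin gene Bst2 by 0.61. Ifi44 was low and went from 10.3 and 7.38 to 1.7 and 2.27 TPM. The family of membrane proteins that block virus entry divided: Ifitm1 stood at 20.8 and 20.7 TPM with vehicle and 49.2 and 46.1 TPM with Mdivi-1 (log2 change 1.16, SE 0.0671, adjusted p = 0.00403), Ifitm3 fell from 989.6 and 999 to 797 and 764 TPM (log2 change -0.35) and Ifitm2 was at 0.26 (adjusted p = 0.0589). Trim30a was the other riser (0.32), and its neighbour Trim30b rose from 93.1 and 88.6 to 176 and 175 TPM (log2 change 0.94, SE 0.0538). Without a library the number lower was 6 without vehicle 1, 4 without vehicle 2, 17 without Mdivi-1 1 and 20 without Mdivi-1 2, and with no filter on low values it was 9. Of 16 interferon-inducible GTPases 5 fell and 0 rose (median -0.34; 0 had an unadjusted p below 0.05 in the upward direction), with Iigp1 at 8.5 and 8.6 TPM with vehicle and 1.68 and 1.31 TPM with Mdivi-1 (log2 change -1.94, SE 0.137). The GTPase falls numbered 1 without vehicle 1 or vehicle 2 and 2 without either Mdivi-1 library.

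The response element bound by interferon regulatory factors was searched as GAAANNGAAA on both strands in the same 250-base windows, where 316 of 8858 promoters (3.57%) hold it. Among effectors with a promoter it is in 30 of 63, in 14 of the 23 that fell, 15 of the 38 that did not pass and 1 of the 2 that rose (Trim30a). The median log2 change was -0.48 in the 30 with a match and -0.24 in the 33 without, a description with no test. Within the effectors called lower, the medians were -0.71 with a match and -0.68 without. Of 16 interferon-inducible GTPases 10 had a promoter, 3 of the 5 that fell among them, and 9 of the 10 hold the element. The largest of those falls, Iigp1 (-1.94) and Gm4951 (-1.17), had no promoter in the search. Gm4951 reached 1 TPM in the vehicle libraries alone. Over the 9 with a match the median was -0.31, and Ifi47, without it, was at -0.47. Over all genes called, 30 of 274 that were lower (10.9%) and 17 of 274 that were higher (6.2%) hold the word. The windows of 3 genes that fell and hold the word, and of Ifitm1, which rose and has no match, are printed to show the element and its place. They are Isg15 (chr4:156200819-156201068, minus strand), Ifit3 (chr19:34583279-34583528, plus strand), Oas1g (chr5:120887614-120887863, minus strand) and Ifitm1 (chr7:140967826-140968075, plus strand), 5′ to 3′ along each gene, with matches in capitals:
Isg15: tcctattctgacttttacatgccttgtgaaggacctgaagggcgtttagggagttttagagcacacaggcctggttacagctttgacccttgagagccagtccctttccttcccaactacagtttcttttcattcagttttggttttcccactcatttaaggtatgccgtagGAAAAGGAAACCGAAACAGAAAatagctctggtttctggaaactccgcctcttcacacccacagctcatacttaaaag
Ifit3: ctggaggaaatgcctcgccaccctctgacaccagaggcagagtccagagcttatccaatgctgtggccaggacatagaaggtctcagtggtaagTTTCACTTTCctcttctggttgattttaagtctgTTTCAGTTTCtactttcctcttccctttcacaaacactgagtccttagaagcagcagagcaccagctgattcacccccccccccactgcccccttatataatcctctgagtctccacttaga
Oas1g: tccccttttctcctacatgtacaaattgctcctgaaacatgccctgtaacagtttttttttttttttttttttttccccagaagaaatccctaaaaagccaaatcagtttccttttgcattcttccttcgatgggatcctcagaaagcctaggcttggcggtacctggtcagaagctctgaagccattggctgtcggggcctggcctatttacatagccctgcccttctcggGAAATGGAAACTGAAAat
Ifitm1: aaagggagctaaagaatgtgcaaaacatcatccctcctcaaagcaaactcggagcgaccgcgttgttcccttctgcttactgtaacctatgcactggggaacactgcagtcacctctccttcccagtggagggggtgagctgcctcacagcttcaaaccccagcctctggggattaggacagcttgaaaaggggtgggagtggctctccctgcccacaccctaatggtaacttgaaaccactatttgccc
Isg15 has 3 overlapping matches between 57 and 78 bases before its start, Ifit3 has 2 between 113 and 156, and Oas1g has 2 between 3 and 18. Of the 23 that fell, 9 have no match in their window, Ifi44 with the largest fall of the list among them. The absence of the word from a window says that these letters are not there.

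**Figure D4:**
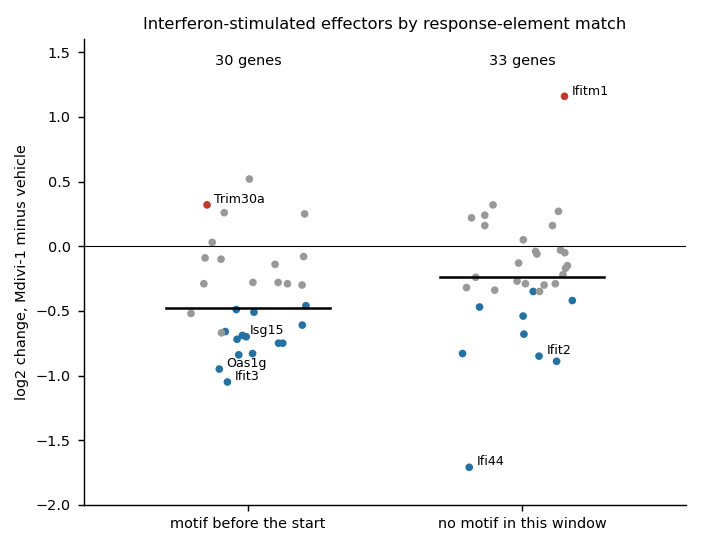
Log2 change with Mdivi-1 (vertical axis) of the 63 interferon-stimulated effectors with a RefSeq promoter, split by whether the 250 bases before the start hold the response element (30 genes, left) or do not (33 genes, right). Points are genes (blue lower, red higher, grey not past the threshold), black bars the medians of -0.48 and -0.24; horizontal spread is for legibility.

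Antigen presentation genes past the test were mostly lower as well. Class I molecules present peptides to CD8 T cells and are induced by interferon. Of 22 tested genes 7 fell and 2 rose (median -0.24). H2-Q6 stood at 236 and 244 TPM with vehicle and 135 and 132 TPM with Mdivi-1 (log2 change -0.84, SE 0.0501) and H2-K1 fell from 1182 and 1209.6 to 931 and 895 TPM (log2 change -0.39), and these genes share reads with related class I copies (48.2% and 77.2% unique 31-mers). The peptide transporter Tap1 (-0.43) and the class I activator Nlrc5 (-0.45) fell, while the proteasome activator Psme1 (0.33) and the chaperone Calr (0.38) rose. The class I falls numbered 1 without vehicle 1, 1 without vehicle 2, 4 without Mdivi-1 1 and 3 without Mdivi-1 2, and 0 rises passed in those fits. Class II genes, which neutrophils carry at low level, fell as well, 4 of 14: Cd74 from 338 and 369 to 185 and 189.8 TPM (log2 change -0.91, SE 0.0624), H2-Aa by 0.78, H2-Ab1 by 0.73 and H2-Eb1 by 0.82. Without vehicle 1 or vehicle 2 these falls numbered 2. The costimulatory gene Cd86 rose by 0.40, a call lost on TPM as deposited. Markers of dendritic cells fell in the same libraries: the summed level of 28 genes, Cd74, H2-Aa, H2-Ab1 and H2-Eb1 among them, went from 966 and 1010 TPM to 597 and 586. Without the 5 genes it shares with the class II list the sum of the other 23 went from 291.5 and 310.6 to 213.6 and 204.4 TPM, in which Bst2 and Irf8, also counted among the interferon genes, are the most abundant. None of the 28 was listed at 0 in any library, and the part of such cells in the class II falls was not tested. The defining dendritic gene Flt3 did not pass (6.76 and 6.57 TPM with vehicle and 6.88 and 6.01 TPM with Mdivi-1) and Siglech, of plasmacytoid dendritic cells, stood at 4.69 and 6.43 TPM with vehicle and 5.2 and 3.83 TPM with Mdivi-1.

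Along the order of neutrophil maturation, the earlier granule lists went both ways, and 36 of 52 late genes rose. Of 17 primary granule genes 2 rose and 2 fell (median 0.06). Fcnb, a ficolin of early neutrophils, stood at 205 and 203 TPM with vehicle and 113 and 118 TPM with Mdivi-1 (log2 change -0.82, SE 0.0523, adjusted p = 0.00451), and lysozyme Lyz2 fell by 0.39. Srgn, the proteoglycan core on which granule proteins are packed, went from 586 and 557 to 1154 and 1296 TPM (log2 change 1.10, SE 0.0716), and the other riser was the chaperone gene Calr (0.38). The protease genes Elane (-0.01, adjusted p = 0.955) and Prtn3 (0.06, adjusted p = 0.601) and Mpo (0.13, adjusted p = 0.201) did not pass.

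In the secondary granule list 5 fell and 4 rose of 24 (median -0.17). Lactoferrin Ltf stood at 7028 and 7189 TPM with vehicle and 5097 and 5350.1 TPM with Mdivi-1 (log2 change -0.44, adjusted p = 0.0122), the ADP-dependent glucokinase gene Adpgk, which makes no granule protein, went from 361 and 347 to 249 and 243 TPM (-0.52), Camp changed by -0.60, Ngp by -0.47 and Cybb, the membrane subunit of the phagocyte oxidase, by -0.31. Under quantile normalization Ngp was at -0.09 (adjusted p = 0.408) and Camp at -0.29. Haptoglobin Hp rose from 558 and 558 to 874 and 904 TPM (log2 change 0.67, SE 0.0458), Lrg1 by 0.54, the collagenase gene Mmp8 by 0.36 and the chitinase-like gene Chil3 by 0.36. The number lower was 1 without vehicle 1, 0 without vehicle 2 and 4 without either Mdivi-1 library, and the number higher 1, 1 and 3; without trend and robust priors 0 were lower and 1 higher. The C/EBP word TTGCNNAA, of the factors that drive secondary granule genes, is in 6 of 21 promoters of this list (28.6%) and in 822 of 8858 (9.28%), with 2 of the 5 that fell and 1 of the 3 that rose holding it.

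Among late genes the median log2 change was 0.54, and 14 of 52 did not pass. Wfdc17, an antiprotease-like secreted protein, stood at 126 and 106 TPM with vehicle and 327 and 379 TPM with Mdivi-1 (log2 change 1.60, SE 0.113). Asprv1 (1.20), the receptor gene Cd101 (0.50), Btg1, an inhibitor of proliferation (0.80), Mxd1, an antagonist of Myc (0.50), and Retnlg (from 22299 and 22264 to 32799 and 33488 TPM, log2 change 0.57, SE 0.037) rose. Under quantile normalization Retnlg was tied across all libraries and had a change of 0. Padi4, the enzyme that citrullinates histones (-0.47), and the fatty acid receptor Gpr84 (-0.73) fell. Mmp9, the tertiary granule gelatinase, stood at 1736 and 1696 TPM with vehicle and 1959 and 1883 TPM with Mdivi-1 (log2 change 0.16, adjusted p = 0.109). The number higher was 23 without vehicle 2 and 24 without vehicle 1.

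The stefins, small inhibitors of cysteine proteases that lie together on chromosome 16 (36119946 to 36455392), rose as a block. All 7 tested were higher, by 1.04 to 1.40, and 6 or 7 passed in each fit without a library. Stfa2l1 stood at 2242 and 2012 TPM with vehicle and 5638 and 5603 TPM with Mdivi-1, Stfa1 at 1036 and 959 TPM with vehicle and 2113 and 2246 TPM with Mdivi-1 and Stfa3 at 317 and 294 TPM with vehicle and 633 and 641 TPM with Mdivi-1 (log2 changes 1.40, 1.13 and 1.06). Near-identical copies share reads here, and between 48.2% and 100% of the 31-mers of the 8 genes in the table are unique. Summed over the cluster, which does not depend on how reads are split inside it, the level was 7684 and 6854 TPM with vehicle and 16610 and 17250 with Mdivi-1.

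**Figure D5:**
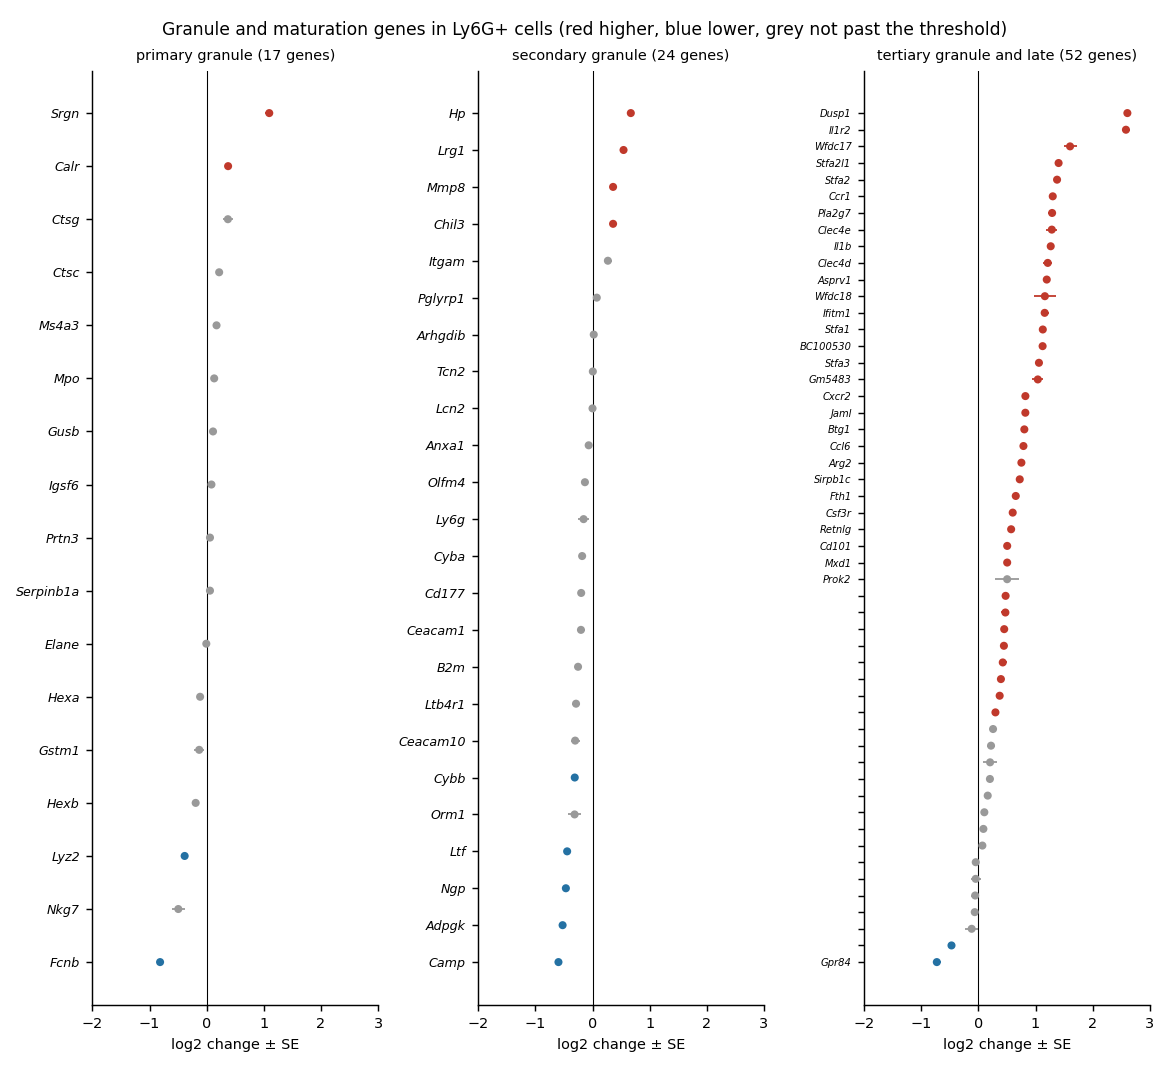
Log2 change with its SE (horizontal axes, points and bars) of each tested gene in the primary granule list (17 genes), the secondary granule list (24) and the tertiary granule and late neutrophil list (52). Red genes were higher with Mdivi-1, blue lower, grey not past the threshold, and in the late list only genes that changed by at least 0.5 in size are labelled by name; the earlier lists hold changes on both sides of 0, and the late list lies mostly to the right.

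A few iron genes rose. Ferritin stores iron, ferroportin exports it and Steap4 reduces it for uptake. Of 34 tested genes 6 rose and 1 fell (median 0.01). The ferritin heavy chain Fth1 stood at 1154 and 1174 TPM with vehicle and 1812 and 1853 TPM with Mdivi-1 (log2 change 0.65, SE 0.0431, adjusted p = 0.00452), Steap4 at 2.46 and 2.42 TPM with vehicle and 12.8 and 12.3 TPM with Mdivi-1 (log2 change 1.98, SE 0.104) and Fbxl5, the iron-sensing subunit that degrades iron regulatory proteins, at 174 and 163 TPM with vehicle and 354 and 359.8 TPM with Mdivi-1 (log2 change 1.08, SE 0.056). Fbxl5 overlaps Bst1 on the opposite strand, which rose from 129 and 127 to 217 and 222 TPM, so this pair is uncertain. Ferroportin Slc40a1 (0.45), heme oxygenase Hmox1 (0.40) and Hp rose and Ltf fell. Slc40a1 and Hmox1, which macrophages also express, passed in 0 of the fits without a library.

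Eicosanoid genes went both ways. Leukotrienes and prostaglandins are made from arachidonic acid that phospholipase frees. Pla2g4a, that phospholipase, stood at 27.6 and 26.1 TPM with vehicle and 59 and 52.5 TPM with Mdivi-1 (log2 change 1.03, adjusted p = 0.00679). Alox5ap, which hands arachidonic acid to 5-lipoxygenase, rose from 1694 and 1722 to 2426 and 2328 TPM (log2 change 0.48), Pla2g7, which destroys platelet-activating factor, from 167 and 163 to 385 and 426 TPM (log2 change 1.29, SE 0.0663) and Ggt5, which converts leukotriene C4, by 1.06. Pla2g7 overlaps 1700071M16Rik on the opposite strand, which rose from 14.35 and 9.726 to 23.62 and 27.25 TPM, so this pair is uncertain. Ggt5 overlaps Gm9985 in the same way, which went from 0.7228 and 0.853 to 3.555 and 1.635 TPM without passing. Of 29 tested eicosanoid genes, 7 fell: Tbxa2r (-1.47), Alox12 (-1.09), Ptger4 (-0.63), Ptgir (-0.54), Hpgd (-0.45), Lta4h (-0.28) and Ptgs1 (-0.28). Tbxa2r, Alox12 and Ptgs1 are known from platelets, whose markers fell in the same libraries. The part of platelets was not tested. Tbxa2r reached 1 TPM in the vehicle libraries alone, so the fits without vehicle 1 or vehicle 2 did not test it. The number lower was 0 without vehicle 1 or vehicle 2.

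Other metabolic and secretory genes changed in small numbers. The acute-phase gene Saa3 stood at 4.95 and 3.38 TPM with vehicle and 22.8 and 23 TPM with Mdivi-1 (log2 change 2.23, SE 0.163), and 7 of 25 acute-phase and antiprotease genes rose and 1 fell (4 and 0 without either vehicle library). Glucose transporter genes rose, Slc2a1 from 18.7 and 20.2 to 32.3 and 32.7 TPM (log2 change 0.72) and Slc2a6 by 0.63, while hexokinase Hk2 fell by 0.42, and 31 of 37 glycolysis genes did not pass; 0 of the 37 passed without vehicle 1 or vehicle 2. Slc2a1 overlaps Gm12867 on the opposite strand, which rose from 0.5885 and 0.5217 to 2.822 and 2.003 TPM, so this pair is uncertain. The arginase gene Arg2 rose from 32.7 and 30.5 to 52.8 and 54.9 TPM (log2 change 0.75), with ornithine aminotransferase Oat (0.48) and spermidine synthase Srm (0.43). The lipase gene Pnpla2 rose by 0.52 and its inhibitor G0s2 fell by 0.56. The desaturase gene Fads2 went from 11.4 and 10.5 to 2.61 and 4.21 TPM (log2 change -1.46). In the phagocyte oxidase list the proton channel Hvcn1 (-0.50) and Cybb fell and 9 of 11 did not pass. The summed level of the oxidase genes was 5054 and 5103 TPM with vehicle and 4894 and 4961 with Mdivi-1.

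No gene of 5 mitochondrial lists passed the test. Of 18 tested fission genes, 16 of fusion and cristae, 13 of the mitochondrial genome, 85 nuclear genes of oxidative phosphorylation and 77 of the mitochondrial ribosome, 0 passed in limma, with 1 and 2 fission genes, 5 and 1 fusion genes, 2 and 0 genes of the mitochondrial genome, 8 and 7 oxidative phosphorylation genes and 4 and 4 ribosome genes higher and lower at unadjusted p below 0.05. Under other settings single members did pass: 1 fission gene lower on TPM as deposited, with upper-quartile scaling, with quantile normalization and with a minimum of 5 TPM, at most 1 gene in each direction of the oxidative phosphorylation and ribosome lists, and mt-Co2 with quantile normalization. Without Mdivi-1 1, 1 oxidative phosphorylation gene and 1 ribosome gene were higher, and the fusion list had 0 called under every setting run. The medians of these lists lay between 0.01 and 0.14. Fis1, a Drp1 receptor, stood at 249 and 274 TPM with vehicle and 242 and 243 TPM with Mdivi-1 (-0.11, SE 0.063, adjusted p = 0.35) and Mff, another, at 142 and 142 TPM with vehicle and 137 and 147 TPM with Mdivi-1 (-0.01, adjusted p = 0.936). In the mitophagy list Map1lc3b rose by 0.33, and Bnip3l was at 0.25 (adjusted p = 0.0569). Dlat, of pyruvate dehydrogenase, rose from 16.3 and 16.5 to 22.6 and 22.4 TPM. Map1lc3b and Dlat passed in 0 of the fits without a library.

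A few chaperone genes rose. In the endoplasmic reticulum list 4 of 27 rose, Hsp90b1 (from 232 and 232 to 293 and 306 TPM), Hspa5 (from 222 and 218 to 277 and 292 TPM), Calr and Hyou1, by 0.36 to 0.38, and in the cytosolic list Hsp90aa1 (0.64), Hspa9 of the mitochondrial matrix (0.43) and Hspa8 (0.30) rose of 22. The 4 reticulum genes passed in 0 of the fits without a library, and Hyou1 also lost its call on TPM as deposited. Of the integrated stress response, Asns (0.75) and Ddit4 rose, Atf3 fell and Atf4 stood at -0.33 (adjusted p = 0.0713). Few cell cycle genes passed: 2 of 45 S phase genes rose, Clspn (0.53) and Hells (0.41), and 2 of 51 of G2 and mitosis fell, Cdc20 (-0.41) and Cenpf (-0.50), each passing in 0 of the fits without a library and Hells also lost on TPM as deposited. Among clock genes Per1 and Nfil3 rose and the output gene Dbp fell from 3.24 and 3.51 to 1.53 and 1.2 TPM, a call lost in each fit without a library, and 14 of 17 did not pass. The p53 target Plk2 rose from 1.23 and 1.61 to 5.67 and 5.61 TPM (log2 change 1.46) and Trp53inp1 by 0.54.

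Transcription factors went both ways. Id2, which blocks DNA binding by E proteins, stood at 157 and 153 TPM with vehicle and 315 and 325 TPM with Mdivi-1 (log2 change 1.04, SE 0.05, adjusted p = 0.00295). Ets2 (0.85), Nfil3 (0.61), Klf13 (0.56) and Bach1 (0.37) rose, which with Nab2, Klf6 and Stat3 makes 8 of 54. Cebpe, the factor of secondary granule genes, went from 280.3 and 318 to 202 and 172 TPM (log2 change -0.68, adjusted p = 0.0327). Gata2 (-1.54), Mycn (-1.37), Zfpm1 (-1.04), Ets1 (-0.63), Lmo2 (-0.55), Erg (-0.48), Lyl1 (-0.38), Irf4 (-0.87) and Irf8 fell, 10 in all, and several of these are known from progenitors, mast cells or lymphocytes. Mycn and Irf4 reached 1 TPM in the vehicle libraries alone, so they were tested only through that arm. The 8 and 10 became 2 and 1 without vehicle 1, 3 and 0 without vehicle 2, 4 and 6 without Mdivi-1 1, and 5 and 6 without Mdivi-1 2.

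Of the 751 called genes 429 are in none of the lists. Among those that met the naming rule by size, the scavenger receptor gene Stab1 rose from 3.19 and 3.28 to 13.9 and 10.3 TPM, the oxidoreductase domain gene Oxnad1 from 6.56 and 5.59 to 20.6 and 20 TPM (log2 change 1.60, SE 0.104) and the salt-inducible kinase gene Sik3 from 24.2 and 24.7 to 59.6 and 80.5 TPM (log2 change 1.46, past the threshold in 2 of the fits without a library). P2ry13, a receptor for ADP, stood at 14.3 and 14.2 TPM with vehicle and 32.7 and 31.6 TPM with Mdivi-1 (log2 change 1.12, SE 0.0686). Of glycosyltransferase genes, St3gal6 rose by 1.10, Gcnt1 from 18.8 and 16.6 to 36.9 and 40.2 TPM (log2 change 1.08, SE 0.0916) and Gcnt2 by 0.97. Gpcpd1 of choline lipid breakdown (1.05), Vmp1 of autophagosome formation (0.90), the sterol acyltransferase Soat2 (1.46), the phosphatase gene Ptp4a1 (1.03), the semaphorin Sema6b (1.34), Rufy4 (1.28) and the peptidase gene Dpep2 (0.91), which acts on leukotriene D4, rose. By difference in TPM the clathrin adaptor Picalm rose from 149 and 145 to 260.2 and 275 TPM (log2 change 0.86, SE 0.0547), Tpd52 from 204 and 226 to 366 and 364 TPM and the actin bundler Lcp1 from 1006 and 1004 to 1194 and 1212 TPM.

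Falls outside the lists were led by genes best known from other tissues. The beaded filament gene Bfsp2, best known from the lens, stood at 14.6 and 11.8 TPM with vehicle and 1.31 and 1.08 TPM with Mdivi-1 (log2 change -2.69, SE 0.152). The crystallin gene Crygn had 102 and 170 TPM in the vehicle libraries but 0 and 0.799 TPM in the Mdivi-1 libraries, and with a value listed at 0 no fold is given. Clusterin Clu stood at 16.9 and 19.6 TPM with vehicle and 4.35 and 5.1 TPM with Mdivi-1 (log2 change -1.75, SE 0.123) and the proenkephalin gene Penk at 29.5 and 28.6 TPM with vehicle and 11 and 13.4 TPM with Mdivi-1 (log2 change -1.19). Penk overlaps A830012C17Rik on the opposite strand, which went from 10.9 and 8.014 to 4.711 and 5.229 TPM without passing, so this pair is uncertain. Ffar2, a receptor for short-chain fatty acids on neutrophils, went from 26.8 and 27.2 to 12.2 and 13.9 TPM, the arginine deiminase Padi2 from 14.4 and 14.4 to 6.71 and 7.57 TPM (-0.92), the acyltransferase Mogat2 from 19.5 and 19.7 to 7.93 and 8.97 TPM (-1.13), acetylcholinesterase Ache by -1.24 and the thrombin receptor F2r by -0.95. Penk, Ffar2, Padi2 and Ache passed in 2 and F2r in 1 of the fits without a library. Among abundant genes gelsolin Gsn fell from 349 and 348 to 268 and 266 TPM (-0.38), Gnas by 0.29, the histone gene H2afx by 0.62 and the selenoprotein gene Selenow by 0.45. Ptprcap fell by 1.42, yet 3.35% of its 31-mers are unique.

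Many markers of other blood cells that the gate could hold fell. Those of eosinophils did not, with 1 higher and 0 lower of 8 tested (median 0.05). Their summed level was 99.2 and 99.8 TPM with vehicle and 110 and 105 with Mdivi-1. Megakaryocyte and platelet genes fell in 19 of 29 cases (1 rose), and their summed level went from 906 and 868 to 638 and 652 TPM. Among them were Cavin2 from 12.5 and 11.9 to 3.18 and 2.74 TPM (log2 change -1.74, SE 0.114) and Nrgn (-1.38), while P2ry12, an ADP receptor of platelets, rose (1.06). In the B cell list 16 of 28 fell and 3 rose, the light chain genes Igkc (from 667 and 676 to 1538 and 1436 TPM) and Iglc2 (1.24) and Bst1, an ectoenzyme that myeloid cells also carry. Without those 3 the summed level was 1156 and 1129 TPM with vehicle and 940.6 and 958.5 with Mdivi-1. Cd79a went from 19.4 and 18.5 to 2.96 and 1.81 TPM, the terminal transferase gene Dntt from 16.7 and 15.5 to 6.18 and 6.53 TPM, and Vpreb2 was listed at 0 in both Mdivi-1 libraries, while Ighm stood at 71.6 and 70 TPM with vehicle and 68 and 60.2 TPM with Mdivi-1. Of 14 basophil and mast cell genes tested, 6 fell and 2 rose (Hdc and Csf2rb, which neutrophils express as well), with the protease gene Prss34 going from 162 and 171 to 61.8 and 62.8 TPM (log2 change -1.40, SE 0.0568) and the mast cell proteases Mcpt1, Mcpt2 and Mcpt4 and the tryptase gene Tpsab1 at 0 in all 4 libraries. Erythroid genes fell in 5 of 31 (summed 3480 and 3510 against 2820 and 2900 TPM), stem and progenitor genes in 8 of 28 with 1 higher (Ifitm1), and monocyte genes went 5 higher and 2 lower of 34 (summed 3770 and 3740 against 3660 and 3810 TPM). The T cell genes Cd3d, Cd3e and Cd3g were between 0.146 and 1.70 TPM in the 4 libraries, and of 22 tested T and NK cell genes Il7r and Klrk1 fell (-1.07 and -0.69), the granzyme gene Gzma rose from 0.64 and 1.13 to 5.13 and 6.1 TPM, and 19 did not pass (median -0.22). Neither fall passed in any fit without a library that tested it. Among plasma cell genes the immunoglobulin chains Ighg2b and Jchain rose from 6.58 and 6.11 to 25.8 and 21.8 TPM and from 17.3 and 16.8 to 32.3 and 41.1 TPM, and Ighg1 and Mzb1 fell from 12.5 and 11.1 to 0 and 0.0783 TPM and from 7.69 and 6.96 to 0.967 and 1.9 TPM. How much these cells contributed to any other result was not tested. Without a library the megakaryocyte falls numbered 5 (vehicle 1), 3 (vehicle 2), 13 (Mdivi-1 1) and 13 (Mdivi-1 2), and the B cell falls 6, 5, 12 and 14. In the same order the stem and progenitor falls numbered 2, 1, 3 and 3, the erythroid falls 0, 0, 2 and 1, the basophil falls 4, 2, 4 and 7 and the monocyte rises 0, 0, 1 and 2. The rises of Hdc and Csf2rb passed in none of those fits and were lost on TPM as deposited.

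The HSCP libraries are set beside these changes as a description. Of 9463 tested genes with a mean of at least 5 TPM in HSCPs, 51.9% had a log2 ratio above 0 there (Mdivi-1 against vehicle). Of 315 genes called higher in Ly6G+, 195 (61.9%) had a ratio above 0, and of 304 called lower, 267 (87.8%) had a ratio below 0, against 48.1% of all. These libraries are other samples, with 1 per arm and no test, and a sort can carry some of the same cells into both populations. Ifit3 stood at 18.9 and 9.46 TPM in HSCP vehicle and Mdivi-1, Mx1 at 20.4 and 13.6 TPM, Cd74 at 689 and 399 TPM and Cavin2 at 15.7 and 2.7 TPM. Late neutrophil genes were lower in level there, as with Cxcr2 at 56.3 and 48.8 TPM, Il1b at 10.2 and 12.4 TPM and Retnlg at 1919 and 1409.7 TPM. Against their rise in Ly6G+ cells, Stab1 went from 11.6 to 5.03 TPM and Oxnad1 from 52.1 to 19.2 TPM in HSCPs.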

How the data were processed

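Gene expression of sorted mutant mouse bone marrow cells was measured by RNA sequencing. The authors deposited 1 table of 28987 genes in 6 libraries, in TPM (transcripts scaled to a fixed total), and per the submitters' processing notes it came from bcl2fastq, CASAVA 1.8 and kallisto with build mm10. The sources used here give neither the transcript annotation nor the kallisto version. Identifiers were matched to GENCODE M21 symbols (27475 genes) for names and positions, and the percent of 31-mers unique to each gene was computed from its transcripts.

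The 2 Ly6G+ vehicle and 2 Ly6G+ Mdivi-1 libraries, grouped by their labels, were scaled by median-of-ratios factors. The 11775 genes that reached 1 TPM in 2 or more of them were tested on log2(TPM + 1) with limma 3.58.1 in R 4.3.3 (trend and robust priors, 2 residual degrees of freedom), with Benjamini-Hochberg adjustment over all genes tested and a threshold of 0.05. Every adjusted p in the text is from this limma fit, and fold changes of low genes are understated by the pseudocount of 1. Without read totals no counting interval can be given. Tables and promoters were handled in Python 3.11.15.

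Members and gene lists were chosen with earlier results of these data known. Genes named by rule were Dnm1l, Cbl, Runx1, Kit and Ly6g, up to 5 members of each of 71 lists (called genes first, ranked by log2 change, then the most abundant), and genes in no list past the test, up to 20 per direction by log2 change and 10 by difference in TPM. Other members named were chosen after their values were seen. Alternatives were other scalings, pseudocounts, filters and limma settings, a replicate block and each library left out. The list of RNA quality genes had 1 tested member and was not used.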

Additional observations from a re-analysis of the deposited data

Results flagged for a closer look

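In 3 of the named genes called in Ly6G+ cells, the HSCP log2 ratio had the opposite sign and a size of at least 1. Only genes with a mean of at least 5 TPM in HSCPs, and with Ly6G+ arms that did not overlap, were considered. Smaller opposite ratios are not listed here. Of 315 genes called higher in Ly6G+ with that mean in HSCPs, 120 (38.1%) had a ratio below 0. Of 304 called lower, 37 (12.2%) had a ratio above 0. Each HSCP arm is 1 library, the difference between populations was not tested, and the values are given as they stand. Oxnad1 rose in Ly6G+ cells (log2 change 1.60), and in HSCPs it went from 52.1 TPM with vehicle to 19.2 TPM with Mdivi-1, a log2 ratio of -1.39. Stab1, a scavenger receptor of macrophages and sinusoidal endothelium, rose by 1.62 in Ly6G+ cells and went from 11.6 to 5.03 TPM in HSCPs, a ratio of -1.07. Tulp4 fell by 1.31 in Ly6G+ cells (19.3 and 12.5 TPM with vehicle and 5.39 and 5.97 TPM with Mdivi-1; adjusted p = 0.0339 by limma) and went from 3.38 to 10.7 TPM in HSCPs, a ratio of 1.42.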

How the results depend on the processing

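Against 379 genes higher and 372 lower, the calls numbered 135 and 91 with no filter on low values, where 19240 genes were tested, and 147 and 190 in limma without trend and robust priors. With the replicate number as a block, which leaves 1 residual degree of freedom, they numbered 163 and 121. Of these, 151 and 117 were among the main calls. The labels do not state a pairing. Deviations of same-numbered libraries from their arm means had a correlation of -0.0302. With 2 libraries per arm, that value cannot settle whether same-numbered libraries are paired. Leaving out 1 library gave between 93 and 196 higher and between 29 and 199 lower, the lone library of an arm being assumed to vary like the others. The cause of these differences, beyond more genes tested or fewer libraries, was not tested. TPM as deposited gave 290 and 499, scaling by the upper quartile 322 and 465, quantile normalization 330 and 401, a pseudocount of 0.1 351 and 347, a pseudocount of 5 390 and 389, and a minimum of 5 TPM 460 and 486. Of the named genes that were called, 115 of 265 passed under each of these 8 processing alternatives that tested them. Some, such as Tbxa2r, were tested under 7. Among named genes that did not pass, mt-Co2 changed direction under quantile normalization, from 0.05 to -0.31 (adjusted p = 0.0317 by limma; 0.668 with the settings of the report); the cause was not tested. Read depth is unknown, so what it limits cannot be stated, apart from values near the worth of 1 read.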
